A study of Rattus norvegicus with 6 samples.

Results

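Potassium channels and the hyperpolarisation-activated HCN channels were followed at the level of their transcripts in rat hippocampal cultures that had or had not been stimulated. The members were the gene rows of the deposited table whose symbol is Hcn with a number or Kcn with further letters and a number, averaging 10 or more normalised reads over the 6 libraries. Of 95 rows with such a symbol 70 reached that mean, out of 32883 gene rows in all. The stimulated group, chemical long-term potentiation (cLTP), comprised 3 cultures that received 50 µM forskolin, an activator of adenylyl cyclase, 50 nM rolipram, an inhibitor of cyclic AMP phosphodiesterases, and 200 µM picrotoxin, a blocker of GABA-A receptors. The control group comprised 3 cultures that received the solvent DMSO alone. Both groups were primary hippocampal neurons from newborn (P0) Wistar pups treated between days 13 and 15 in vitro, with no genotype named. The sources used here give no time between treatment and harvest. The labels call the cultures biological replicates but name no separate litters or days, so the p-values reflect only how these cultures varied, which may be technical. A passage of the labels on library preparation names sorted cells from operated animals, against all other labels, and was not used.

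Potassium channels let potassium leave the cell and so set the resting potential, repolarise the action potential and limit repetitive firing. Voltage-gated Kv subunits assemble as tetramers and some of them, the silent subunits, form no channel alone but modify Kv2 channels. Inward rectifiers and two-pore-domain channels act near rest, calcium- and sodium-activated channels follow the ions that firing brings in, and HCN channels carry the depolarising h-current, which cyclic AMP facilitates. In hippocampal neurons, activity is known to regulate several of these channels through phosphorylation and trafficking as well as transcription; only transcript levels were measured here.

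The 6 libraries held 10668973 to 12776185 reads assigned to genes, and 3 reads corresponded to a normalised read count of 2.63 to 3.38. Markers of neurons and of astrocytes were both abundant, with astrocyte markers summing to 141801 to 198876 in cLTP and 122478 to 191383 in DMSO libraries. Neuronal markers (9 genes) summed to 60494, 55184 and 73892 in cLTP cultures 1 to 3, against 53852, 51189.6 and 65284 in DMSO cultures 1 to 3. Markers of inhibitory neurons (7 genes) summed to 16543, 19432 and 23173 in cLTP cultures 1 to 3, against 14238, 16861 and 17972 in DMSO cultures 1 to 3. Both sums were higher in each cLTP culture than in the DMSO culture of the same number, and their part in the values of the channel genes was not tested. Microglial markers (8 of 9 found in the table) summed to 828 in cLTP 3 and 792 in DMSO 3, against 44.8 to 52.9 in the other 4 libraries. Culture 3 of both groups stood apart from cultures 1 and 2 in this and, on the second principal component (31.4% of the variance), across genes. Of all the markers examined, those past the threshold were Nefl, a neurofilament gene, and Sst, which encodes somatostatin, both higher with cLTP.

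Transcripts of 6 of the 70 channel genes changed with cLTP: Kcnj2, Kcnk10, Kcnf1 and Kcnt1 rose, and Kcna2 and Kcnv1 fell (limma on log2 of the normalised read count + 1, adjusted p under 0.05 over all 17315 genes tested). The same 6 passed in edgeR's quasi-likelihood test and in DESeq2 on the recovered reads. Among all genes tested limma called 9.02%, with 5.71% higher and 3.31% lower, and among the 14095 genes with a mean of at least 10 it called 10.7%, with 6.68% higher and 4.02% lower. EdgeR called 11.5% of its genes, 6.9% higher and 4.59% lower, and DESeq2 10.6%, 6.91% higher and 3.64% lower. The 8.57% called among the channel genes, 5.71% higher and 2.86% lower, lay near these shares. These are bulk cultures, in which fewer cells of a type and less RNA per cell cannot be told apart. With the culture number as a block, limma called 4 channel genes higher and 10 lower, or 20% of them, and edgeR called the same 14. Of all genes tested limma with the block called 23.5%, 12.9% higher and 10.7% lower, and edgeR with the block 28.7%, 15.1% higher and 13.6% lower.

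**Figure D1:**
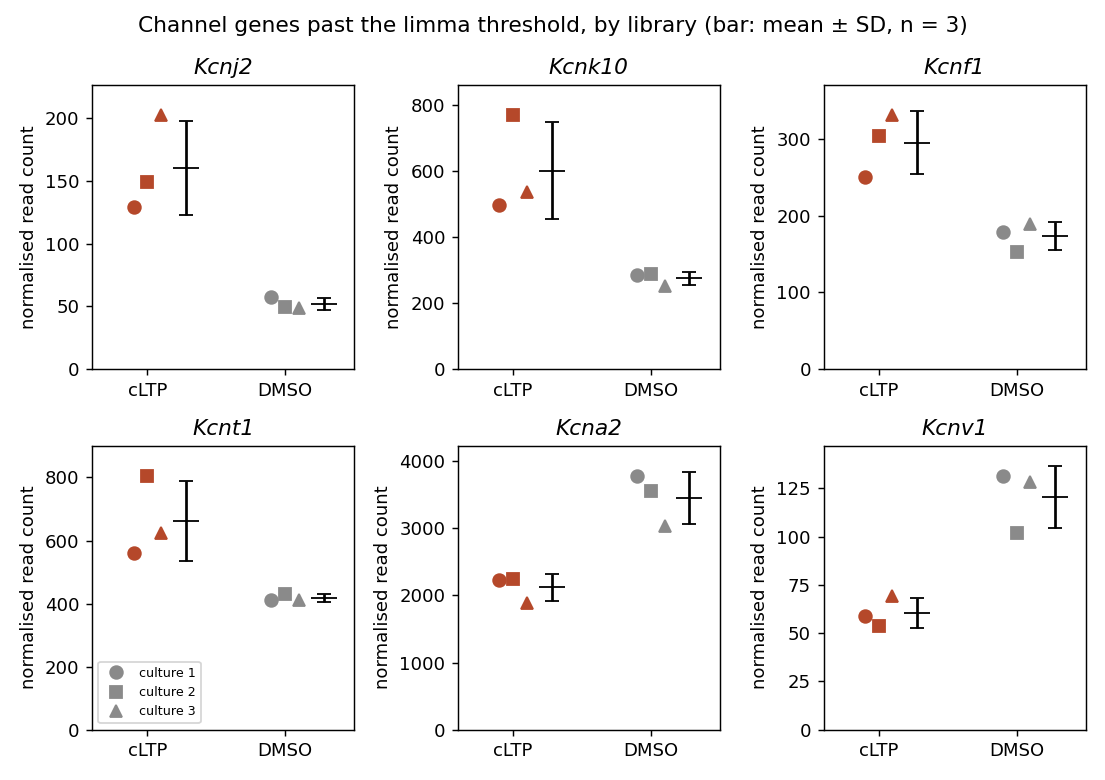
Normalised read counts (vertical axes, from 0) of the 6 channel genes past the limma threshold in each library, with cLTP left of DMSO, the marker shape giving the culture number, and the bar the mean ± SD of 3 libraries. In each of the 6 panels the 3 cLTP libraries lie on one side of the 3 DMSO libraries, which the choice of genes by the limma test favours. For Kcnj2 the lowest cLTP value is 129.6 and the highest DMSO value 57.1.

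Kcnj2 (ENSRNOG00000004720) encodes Kir2.1, a strong inward rectifier that stabilises the resting potential. Its normalised read counts were 129.6, 149 and 202 in cLTP cultures 1 to 3, against 57.1, 49.2 and 48.2 in DMSO cultures 1 to 3. Every cLTP culture was above every DMSO culture, and the means were 160.4 ± 37.7 with cLTP and 51.5 ± 4.86 with DMSO (SD, n = 3 each). On the scale of log2(value + 1) this was a 3.03-fold rise, with a log2 fold change of 1.60 and a standard error of 0.18 (limma adjusted p = 0.000665). Within the culture numbers, the log2 differences between the cLTP and the DMSO culture were 1.17, 1.58 and 2.05, so that culture 3 had the widest difference and culture 1 the narrowest.

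Kcnk10 (ENSRNOG00000003813) encodes TREK-2, a two-pore-domain channel that carries background potassium current. It was at 497, 768 and 536 in cLTP cultures 1 to 3, against 283, 287 and 251 in DMSO cultures 1 to 3. Culture 2 held the highest cLTP value, while the DMSO cultures lay close together and all below the cLTP cultures. The means were 600.4 ± 146 with cLTP and 274 ± 19.8 with DMSO (SD, n = 3 each), a 2.15-fold rise with a log2 fold change of 1.11 and a standard error of 0.16 (limma adjusted p = 0.00282). In the RefSeq annotation of GRCr8 the span of the gene overlaps that of 1 long non-coding RNA gene. Whether the pair shares exons or a strand was not checked, and no source used here gives the strand setting of the counting. Whether reads of the non-coding gene entered the values of Kcnk10 is therefore not known.

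Kcnf1 (ENSRNOG00000024310) encodes the silent subunit Kv5.1, which forms functional channels only together with Kv2 subunits. Its values were 250.3, 304 and 331 in cLTP cultures 1 to 3, against 178, 153 and 189 in DMSO cultures 1 to 3. The groups did not overlap, and the gene rose 1.69-fold (log2 fold change 0.76, standard error 0.13, limma adjusted p = 0.00779). Culture 1 gave the narrowest difference, with log2 differences of 0.49, 0.99 and 0.80 in cultures 1 to 3.

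Kcnt1 (ENSRNOG00000017283) encodes Slack, a channel opened by intracellular sodium that contributes to slow afterhyperpolarisation. It was at 560.3, 804 and 624 in cLTP cultures 1 to 3, against 410.0, 431 and 412 in DMSO cultures 1 to 3. The DMSO values were nearly alike, whereas cLTP culture 2 stood well above the other cLTP cultures. The gene rose 1.57-fold, with a log2 fold change of 0.65 and a standard error of 0.13 (limma adjusted p = 0.013), and without DMSO 1 the adjusted p was 0.0574 and the call was lost.

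Kcna2 (ENSRNOG00000018285) encodes Kv1.2, a low-threshold delayed rectifier of axons. Its normalised read counts were 2237, 2244 and 1891 in cLTP cultures 1 to 3, against 3779.7, 3552 and 3029.9 in DMSO cultures 1 to 3. All cLTP cultures were below all DMSO cultures, and culture 3 was the lowest of its group on both sides. The gene fell to 0.616-fold of the DMSO level (log2 fold change -0.70, standard error 0.11, limma adjusted p = 0.00377), and the log2 differences within cultures 1 to 3, -0.76, -0.66 and -0.68, were close to each other. Kcnv1 (ENSRNOG00000004117) encodes the silent subunit Kv8.1, another modifier of Kv2 channels. It was at 58.6, 53.9 and 69.2 in cLTP cultures 1 to 3, against 131, 102 and 128 in DMSO cultures 1 to 3. The groups did not overlap, and Kcnv1 fell to 0.508-fold (log2 fold change -0.98, standard error 0.16, limma adjusted p = 0.00568). Of the silent subunits, 1 rose and 1 fell past the threshold.

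With 1 culture number left out of both groups, each group keeps 2 libraries. Without culture 3 all 6 calls held, where 9.44% of all genes tested were called, 6.14% higher and 3.3% lower. Without culture 1 the calls that held were Kcnj2 and Kcnk10, where 2.32% of all genes were called, 2.13% higher and 0.196% lower, and without culture 2 Kcnj2, Kcnk10 and Kcnv1, where 3.3% were called, 2.8% higher and 0.497% lower. Without culture 1 the adjusted p-values were 0.105 for Kcna2, 0.143 for Kcnv1, 0.0592 for Kcnf1 and 0.0877 for Kcnt1, and without culture 2 they were 0.0578 for Kcna2, 0.121 for Kcnf1 and 0.0661 for Kcnt1, so these calls were lost (limma), with directions kept.

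Forskolin and rolipram raise cyclic AMP, and the transcription factor CREB binds the cyclic AMP response element TGACGTCA or its half-site TGACG. Promoter windows from RefSeq (build GRCr8, 250 bases before to 50 after a start) matched 44 of the 70 channel genes by symbol, among them 4 of the 6 that changed. A gene was counted where any of its windows held the motif. Of these 44 genes, 0 held TGACGTCA and 8 (18.2%) held TGACG on either strand, which also counts any TGACGTCA. Of all 27457 genes with such a window, 2.00% held TGACGTCA and 23.0% held TGACG. The upstream 250 bases of the first listed start are shown for the 4 changed genes with a window, 5′ to 3′ on the gene's strand, with TGACG on either strand in capitals.
Kcnt1, chr3:29081089-29081338 (plus strand): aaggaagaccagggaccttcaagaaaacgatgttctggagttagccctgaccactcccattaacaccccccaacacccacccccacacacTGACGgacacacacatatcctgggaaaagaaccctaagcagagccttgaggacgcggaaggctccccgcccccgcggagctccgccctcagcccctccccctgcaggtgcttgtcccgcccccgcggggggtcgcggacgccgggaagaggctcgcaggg
Kcnf1, chr6:45693707-45693956 (minus strand): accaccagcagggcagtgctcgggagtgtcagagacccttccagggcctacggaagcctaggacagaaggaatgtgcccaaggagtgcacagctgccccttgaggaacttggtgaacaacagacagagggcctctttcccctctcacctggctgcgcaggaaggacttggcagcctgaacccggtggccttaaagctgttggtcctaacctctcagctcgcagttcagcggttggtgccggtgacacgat
Kcnj2, chr10:96559975-96560224 (plus strand): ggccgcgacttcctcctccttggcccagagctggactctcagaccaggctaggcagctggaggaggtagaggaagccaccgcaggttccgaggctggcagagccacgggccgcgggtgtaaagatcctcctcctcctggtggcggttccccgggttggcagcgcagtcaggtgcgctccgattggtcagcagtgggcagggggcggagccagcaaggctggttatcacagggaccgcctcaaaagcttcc
Kcna2, chr2:197393280-197393529 (plus strand): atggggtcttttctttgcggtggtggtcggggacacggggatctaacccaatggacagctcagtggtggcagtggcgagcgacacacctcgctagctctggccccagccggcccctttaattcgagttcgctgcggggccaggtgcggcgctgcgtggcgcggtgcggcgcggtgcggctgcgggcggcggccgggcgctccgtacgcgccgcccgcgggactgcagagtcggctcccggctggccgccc
Among these only the window of Kcnt1 held a half-site, which begins 160 bases before the start, and the window of its second listed start held none. A match is a description of the letters and not a binding site, and windows of 300 bases leave out elements further away.

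A further 8 channel genes were called lower with cLTP in the fit that takes the culture number as a block, which compares same-numbered cultures, and not without the block. The groups overlapped for Kcnj3 and Kcnq3 and did not for the other 6, which their choice by a test on the same values favours. Lower without overlap were 13.3% of all genes tested and 15.1% of those with a mean of at least 10. With libraries scaled to equal totals 5 of the 8 passed without the block, a scaling under which 12.4% of all genes were called, 4.75% higher and 7.62% lower. Kcnj3, which encodes GIRK1, a G protein-gated inward rectifier that mediates slow inhibition, was at 232, 181 and 289 in cLTP cultures 1 to 3, against 307, 242 and 432 in DMSO cultures 1 to 3. The highest cLTP value, in culture 3, exceeded the lowest DMSO value, in culture 2. Each cLTP culture lay below the DMSO culture of the same number, by log2 differences of -0.40, -0.42 and -0.58 (limma adjusted p = 0.303, or 0.000452 with the block). The labels do not state that same-numbered cultures are pairs. Kcnn2 encodes SK2, a calcium-activated channel of dendritic spines and of the afterhyperpolarisation. It was at 482, 458 and 370.3 in cLTP cultures 1 to 3, against 647, 529 and 492 in DMSO cultures 1 to 3 (adjusted p = 0.168, or 0.00128 with the block). The Kcnn2 groups did not overlap. Kcnn1, which encodes the related SK1, was at 393, 363 and 312 in cLTP cultures 1 to 3, against 447, 413 and 402 in DMSO cultures 1 to 3 (adjusted p = 0.224, or 0.023 with the block). The groups of Kcnn1 did not overlap either, with cLTP 1 close below DMSO 3.

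Kcnj11 encodes Kir6.2, the pore of ATP-sensitive potassium channels, which link excitability to metabolism. It was at 49.6, 38.3 and 42.7 in cLTP cultures 1 to 3, against 65.6, 57.1 and 75.8 in DMSO cultures 1 to 3 (limma adjusted p = 0.0849, or 0.0157 with the block). All cLTP values were below all DMSO values. Kcng2, which encodes the silent subunit Kv6.2, was at 232, 179 and 198 in cLTP cultures 1 to 3, against 268, 236 and 247 in DMSO cultures 1 to 3 (adjusted p = 0.177, or 0.0184 with the block). Its groups did not overlap, by a narrow margin between cLTP 1 and DMSO 2. Kcnd1 encodes Kv4.1, a subunit of A-type channels, which inactivate rapidly. It was at 203, 186 and 178 in cLTP cultures 1 to 3, against 214, 241 and 243 in DMSO cultures 1 to 3 (adjusted p = 0.132, or 0.0347 with the block), with culture 1 giving the narrowest difference. Kcnk3 encodes TASK-1, an acid-sensitive background channel, and was at 143, 148 and 128 in cLTP cultures 1 to 3, against 195, 162 and 166 in DMSO cultures 1 to 3 (adjusted p = 0.174, or 0.0432 with the block). The Kcnk3 groups did not overlap. Kcnq3 encodes Kv7.3, a subunit of the M-current, and was at 614, 713 and 727 in cLTP cultures 1 to 3, against 665, 813 and 849.8 in DMSO cultures 1 to 3 (adjusted p = 0.436, or 0.0405 with the block). Its groups overlapped, since cLTP 2 and cLTP 3 lay above DMSO 1. The log2 fold changes of these 8 genes ran from -0.59 for Kcnj11 to -0.18 for Kcnq3.

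**Figure D2:**
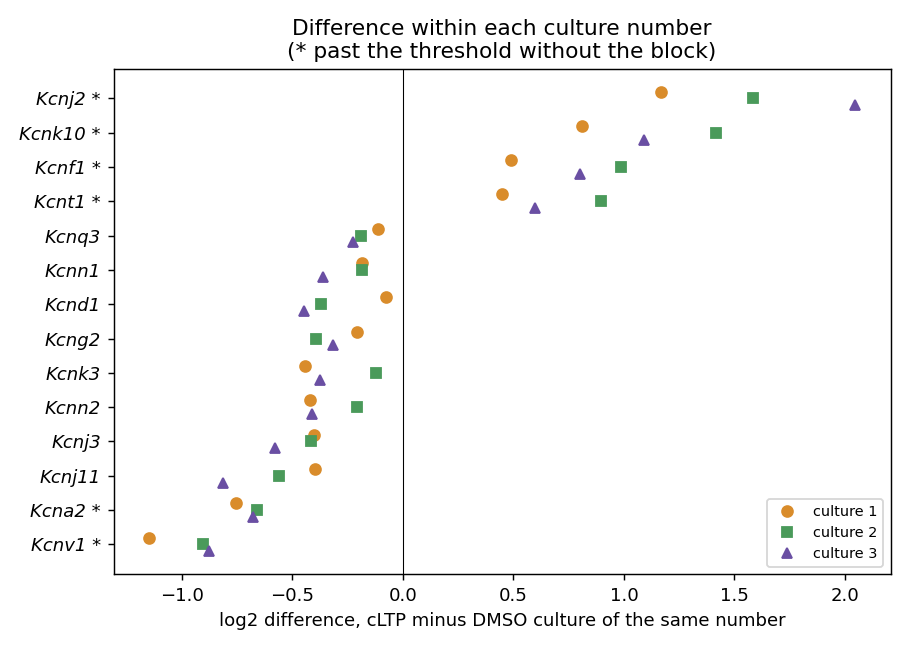
Log2 difference between the cLTP and the DMSO culture of the same number (horizontal axis) for the 14 channel genes past the threshold with the culture number as a block, with a star on the 6 that also passed without it. The differences run from 2.05 for Kcnj2 in culture 3 to -1.15 for Kcnv1 in culture 1. All 3 cultures lie on the same side of 0 for each of the 14 genes, which their choice by these same differences favours.

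The other Kv1 subunits, which can share tetramers with Kv1.2, did not pass the test. Kcna1 (Kv1.1) averaged 514 ± 118 with cLTP and 547 ± 123 with DMSO, Kcna4 (Kv1.4) 328 ± 38.0 with cLTP and 307 ± 99.1 with DMSO, and Kcna6 (Kv1.6) 738 ± 80.8 with cLTP and 725 ± 59.6 with DMSO (SD, n = 3 each), with groups that overlapped. Kcna3 (Kv1.3) was at 178, 195 and 195 in cLTP cultures 1 to 3, against 215, 235 and 211 in DMSO cultures 1 to 3, without overlap (limma adjusted p = 0.265). The log2 fold change of Kcna2 was -0.70, and those of the other 4 ran from -0.22 for Kcna3 to 0.14 for Kcna4. The cytoplasmic beta subunits of Kv1 channels did not pass either: Kcnab1 averaged 459 ± 95.8 with cLTP and 487 ± 131 with DMSO, and Kcnab2 889 ± 144 with cLTP and 903 ± 197 with DMSO. The third, Kcnab3, was at 27.1, 11.4 and 23.4 in cLTP cultures 1 to 3, against 12.4, 12.3 and 22.6 in DMSO cultures 1 to 3, a wide spread at a low level (adjusted p = 0.698).

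Among the silent subunits besides Kcnf1, Kcnv1 and Kcng2, Kcns2 (Kv9.2) averaged 106 ± 11.7 with cLTP and 90.0 ± 7.14 with DMSO, Kcns3 (Kv9.3) 75.5 ± 10.7 with cLTP and 94.3 ± 11.3 with DMSO, and Kcng1 (Kv6.1) 337 ± 62.4 with cLTP and 373 ± 54.7 with DMSO. Their intervals all included 0, with -0.083 to 0.55 for Kcns2, -0.69 to 0.046 for Kcns3 and -0.49 to 0.19 for Kcng1. Kcng3 and Kcng4 averaged 13.4 and 14.5 over the 6 libraries and had wide intervals, -0.76 to 0.58 for Kcng3 and -0.39 to 1.11 for Kcng4.

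Kv3 subunits serve fast spiking, and the log2 fold changes of Kcnc1, Kcnc2 and Kcnc4 were below 0. These ran from -0.20 for Kcnc4 (Kv3.4) to -0.046 for Kcnc2 (Kv3.2), with Kcnc1 (Kv3.1) at -0.082, and none of these passed the limma test. Kcnc4 was at 327, 301 and 279 in cLTP cultures 1 to 3, against 348, 325 and 366 in DMSO cultures 1 to 3 (adjusted p = 0.291). The difference was widest in culture 3, and cLTP 1 and DMSO 2 were nearly equal. Kcnd3, the other Kv4 subunit in the set, averaged 1513 ± 141 with cLTP and 1569 ± 100.2 with DMSO (95% interval of the log2 fold change -0.26 to 0.15). The KChIP proteins, calcium-binding partners of Kv4 channels, had log2 fold changes between -0.043 for Kcnip2 and 0.14 for Kcnip4, with Kcnip1 at -0.0073 and Kcnip3 at 0.059. Kcnip4 was at 176, 167 and 206 in cLTP cultures 1 to 3, against 151, 147 and 203 in DMSO cultures 1 to 3 (adjusted p = 0.681), and its groups overlapped through DMSO 3.

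Kcnq5, a subunit of the Kv7 family, averaged 1240.3 ± 175 with cLTP and 1335 ± 173 with DMSO (SD, n = 3 each), with a 95% interval of the log2 fold change of -0.39 to 0.17. Of the EAG, ERG and ELK subunits, 6 of 7 had a log2 fold change below 0 and all 7 had intervals that included 0. Kcnh8, of the ELK branch, was at 15.8, 21.8 and 15.3 in cLTP cultures 1 to 3, against 20.9, 26.3 and 28.6 in DMSO cultures 1 to 3 (limma adjusted p = 0.295). Its cLTP and DMSO values overlapped between cLTP 2 and DMSO 1, at a level of few reads. Kcnh2, which encodes the ERG1 channel, averaged 309 ± 81.2 with cLTP and 329 ± 63.5 with DMSO, and Kcnh1, which encodes EAG1, 402 ± 33.8 with cLTP and 375 ± 33.1 with DMSO. The log2 fold changes of the remaining ones were -0.16 for Kcnh3, -0.13 for Kcnh4, -0.14 for Kcnh5 and -0.28 for Kcnh7. The accessory subunit gene Kcne5 was at 434, 381 and 315 in cLTP cultures 1 to 3, against 436, 382 and 243 in DMSO cultures 1 to 3 (adjusted p = 0.82). Both groups were lowest in culture 3. Kcne2, the other accessory subunit measured, averaged 28.7 ± 3.77 with cLTP and 29.3 ± 6.60 with DMSO.

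Among channels opened by calcium, Kcnma1, the pore subunit of the large-conductance BK channel, averaged 946 ± 113 with cLTP and 1009 ± 144 with DMSO (95% interval of the log2 fold change -0.37 to 0.18). Its neuronal partner Kcnmb4 was at 169, 123 and 133 in cLTP cultures 1 to 3, against 143, 114 and 115 in DMSO cultures 1 to 3 (limma adjusted p = 0.577), with overlap. Kcnmb2, an inactivating BK subunit, averaged 106 ± 24.2 with cLTP and 105 ± 24.0 with DMSO. Kcnn3, which encodes SK3, was at 231, 236 and 239 in cLTP cultures 1 to 3, against 205, 206 and 212 in DMSO cultures 1 to 3, higher in each cLTP culture but by a log2 fold change of 0.18 that did not pass the test (adjusted p = 0.301). Next to the fall of Kcnn1 and Kcnn2 under the block, the log2 fold change of Kcnn3 was of the other sign; the difference between them was not tested. Kcnt2, which encodes Slick, the relative of Slack, averaged 521 ± 59.4 with cLTP and 577 ± 92.0 with DMSO (95% interval -0.44 to 0.16).

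Of 10 inward rectifiers, Kcnj2 alone passed the limma test, and Kcnj3 and Kcnj11 fell under the block. The other Kir2 genes did not pass. Kcnj4 (Kir2.3) averaged 415 ± 106 with cLTP and 431 ± 100.5 with DMSO, Kcnj14 (Kir2.4) 163 ± 16.2 with cLTP and 141 ± 8.42 with DMSO, and Kcnj12 (Kir2.2) 39.2 ± 1.41 with cLTP and 42.8 ± 0.595 with DMSO. Kcnj14 did not overlap, with cLTP higher (limma adjusted p = 0.367), and Kcnj12 did not overlap, with cLTP lower (limma adjusted p = 0.749). In human KCNJ12 has a near-identical copy, and whether a copy affects the assignment of reads to Kcnj12 in rat was not tested. The other GIRK subunits did not pass: Kcnj6 (GIRK2) averaged 236 ± 45.4 with cLTP and 272 ± 21.1 with DMSO, and Kcnj9 (GIRK3) 138 ± 14.4 with cLTP and 168 ± 28.7 with DMSO. Their log2 fold changes were -0.22 for Kcnj6 and -0.28 for Kcnj9, with limma adjusted p-values with the block of 0.0874 for Kcnj6 and 0.0725 for Kcnj9. Kcnj10 (Kir4.1), the channel through which astrocytes clear potassium, was at 693, 701 and 456 in cLTP cultures 1 to 3, against 909, 659 and 420.5 in DMSO cultures 1 to 3. The libraries of Kcnj10 differed more between culture numbers than between groups.

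Of 8 two-pore-domain channels, Kcnk10 rose and Kcnk3 fell under the block. Kcnk2 (TREK-1), the closest relative of TREK-2, averaged 48.7 ± 11.5 with cLTP and 60.6 ± 8.83 with DMSO (log2 fold change -0.33, 95% interval -0.80 to 0.15). Kcnk9 (TASK-3) averaged 199 ± 26.9 with cLTP and 210.2 ± 38.7 with DMSO, Kcnk1 (TWIK-1) 297 ± 35.8 with cLTP and 327 ± 44.7 with DMSO, Kcnk12 (THIK-2) 187 ± 45.2 with cLTP and 159 ± 37.8 with DMSO, and Kcnk4 (TRAAK) 59.1 ± 17.1 with cLTP and 57.9 ± 3.87 with DMSO. The groups of these 4 overlapped. Kcnk13 (THIK-1), a channel known from microglia, was at 12.4, 11.4 and 19.3 in cLTP cultures 1 to 3, against 10.5, 10.5 and 10.8 in DMSO cultures 1 to 3. Its highest value was in cLTP 3, while the summed microglial markers (8 genes, none at 0 in all libraries) were high in culture 3 of both groups, at 828 in cLTP 3 and 792 in DMSO 3; their part in the value was not tested.

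The HCN genes Hcn2, Hcn3 and Hcn4 did not pass in limma, edgeR or DESeq2, and 0 of them had an unadjusted p under 0.05 in limma. Hcn2 averaged 835 ± 84.5 with cLTP and 880.0 ± 39.2 with DMSO, and Hcn3 750.4 ± 126 with cLTP and 732 ± 97.6 with DMSO (SD, n = 3 each). The 95% intervals of the log2 fold change were -0.29 to 0.13 for Hcn2 and -0.28 to 0.34 for Hcn3. Hcn4, whose channels respond strongly to cyclic AMP, was at 138, 156 and 207 in cLTP cultures 1 to 3, against 147, 181 and 255 in DMSO cultures 1 to 3 (adjusted p = 0.682). Culture 3 was the highest of each group. In all, 11 of the 16 role groups had no member past the threshold in limma, edgeR or DESeq2, each without the block. Of their 37 members 3 (Kcnd1, Kcnn1 and Kcnn2) had an unadjusted p under 0.05 in limma. The choice of groups without a called member favours a low count, so it cannot be compared with a share of all genes. Of all 70 channel genes 12 had an unadjusted p under 0.05 in limma, against 23.9% of the 14095 genes with a mean of at least 10. With the block 3 of these 11 groups had a called member, through Kcnd1, Kcnq3, and Kcnn1 with Kcnn2.

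**Figure D3:**
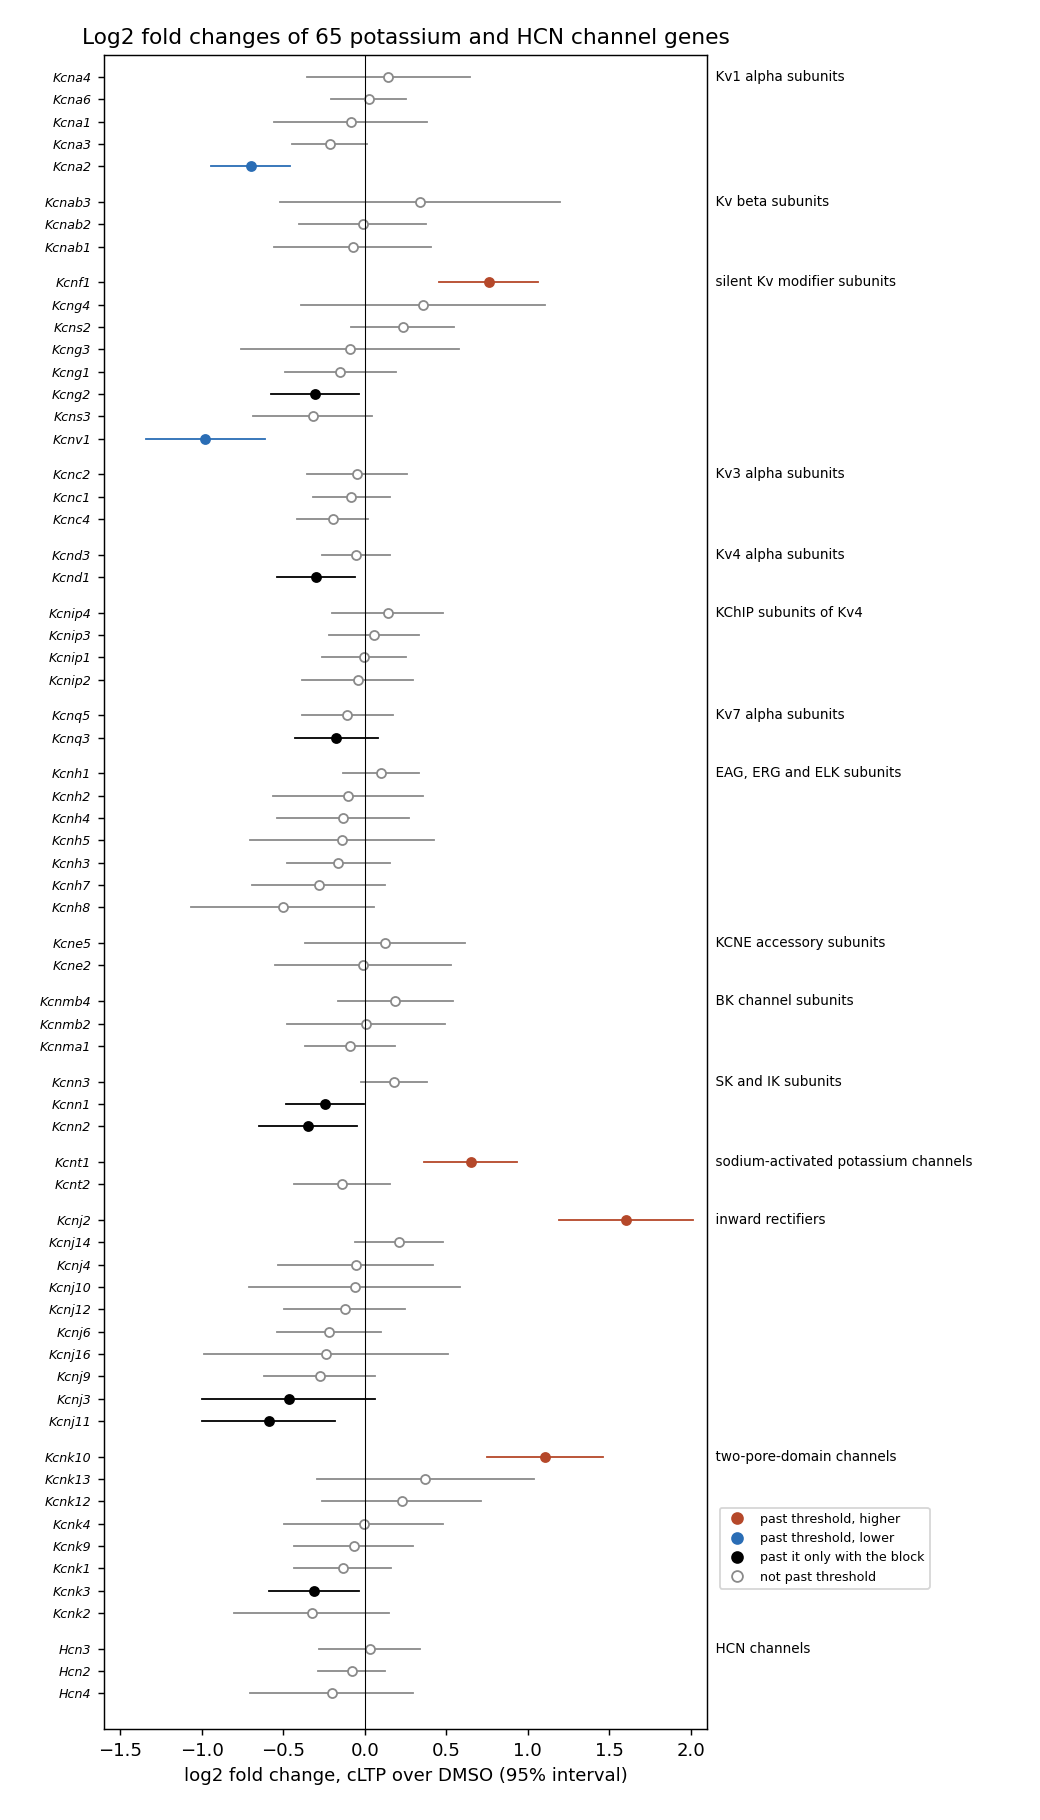
Log2 fold change of cLTP over DMSO with its 95% interval (horizontal axis, limma) for 65 of the 70 channel genes, grouped by role and ordered within each group. The 6 coloured genes passed the threshold, the 8 black ones passed only with the culture number as a block, and the values run from 1.60 for Kcnj2 to -0.98 for Kcnv1.

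The log2 fold changes of the 70 channel genes had a median of -0.078, with 49 of 70 below 0, where the 14095 genes with a mean of at least 10 had a median of 0.0014 and 49.7% below 0. By culture number, 44, 46 and 44 channel genes were lower with cLTP in cultures 1, 2 and 3, with median log2 differences of -0.093, -0.066 and -0.091. The cLTP culture was the lower one in all 3 culture numbers for 28 of the 70 (40.0%), against 27.8% of the 14095 genes, and the higher one in all 3 for 12 (17.1%), against 29.7%. Groups without overlap were lower with cLTP for 11 channel genes (15.7%) and higher for 7 (10%), where 13.3% and 15% of all genes tested did the same, or 15.1% and 16% of the 14095. The median moved to 0.0020 without DMSO 3, -0.14 without cLTP 3, -0.14 without DMSO 2 and -0.033 without cLTP 2. With libraries scaled to equal totals the median over all genes tested was -0.11, against 0.0023 as deposited, and that of the channel genes was -0.19. With quantile normalization, which called 9.79% of all genes, 5.18% higher and 4.61% lower, these medians were -0.050 and -0.13, and the same 6 channel genes passed.

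**Figure D4:**
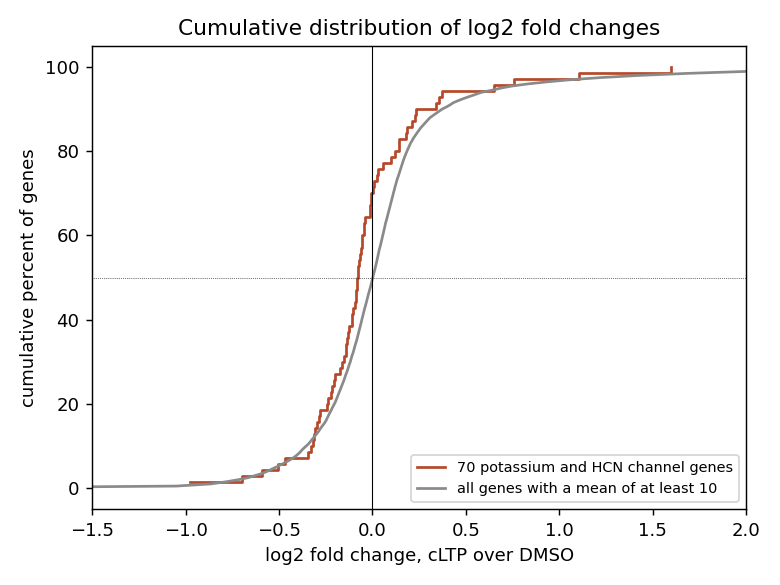
Cumulative percent of genes (vertical axis) by log2 fold change of cLTP over DMSO (horizontal axis), for the 70 channel genes and for the 14095 genes with a mean of at least 10. The channel curve crosses 50% at -0.078 and that of all such genes at 0.0014.

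Channel genes also differed between culture numbers, over both groups. Their level in culture 3 exceeded the mean of cultures 1 and 2 by a median log2 difference of 0.17, with 48 of 70 higher in culture 3, against -0.0080 over the 14095 genes. The highest differences were 0.61 for the low-level Kcnab3, 0.58 for Kcnj3, 0.57 for Hcn4 and 0.56 for Kcnj4. On the other side were Kcnj10 (-0.75) and Kcnj16 (-0.92), which encodes Kir5.1, the partner of Kir4.1 in astrocytes. Kcnj16 was at 122, 124 and 59.0 in cLTP cultures 1 to 3, against 144, 129.9 and 78.8 in DMSO cultures 1 to 3. In both groups culture 3 was lowest for Kcnj10 and Kcnj16. Summed astrocyte markers (8 of 8 found) were 141801 in cLTP 3 and 122478 in DMSO 3, below the other libraries of their groups, and summed neuronal markers (9 of 9 found) were 73892 in cLTP 3 and 65284 in DMSO 3, above them; their part in these differences was not tested.

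**Figure D5:**
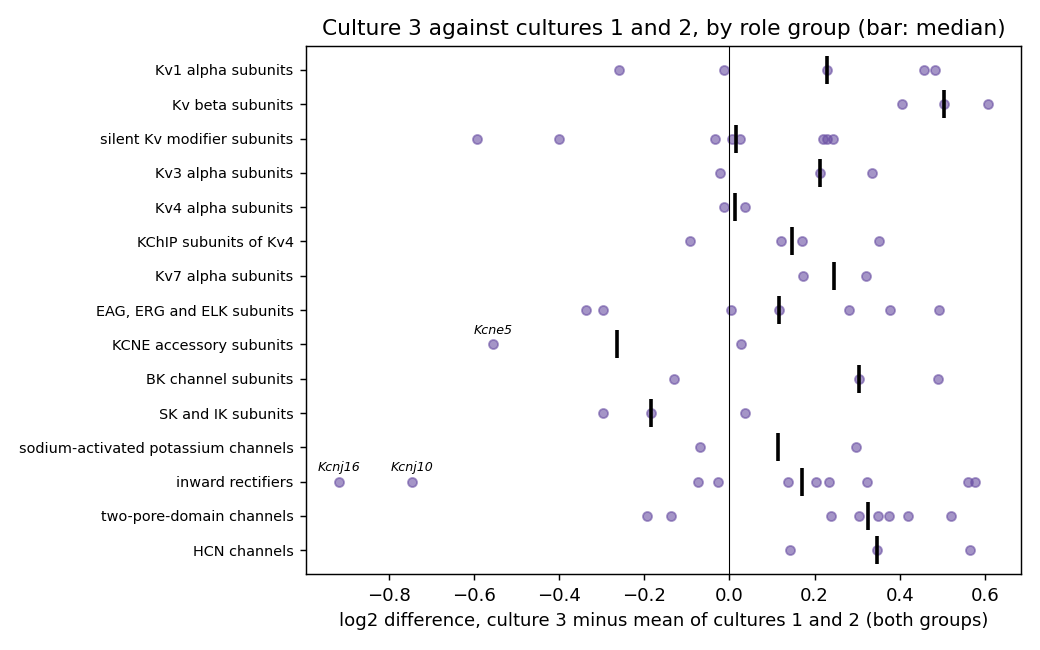
Log2 difference of culture 3 from the mean of cultures 1 and 2, over both groups (horizontal axis), for 65 channel genes by role group, with a bar at the group's median. Of the 65 points 44 lie right of 0, and the farthest left are Kcnj16 (-0.92), Kcnj10 (-0.75), the low-level Kcng4 (-0.59) and Kcne5 (-0.55).

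Genes whose products bind, traffic or modulate these channels were taken as a list of 20, of which 18 were found in the table and 17 were tested. In limma, edgeR and DESeq2 0 passed, where limma called 9.02% of all genes tested. In limma 3 had an unadjusted p under 0.05, all lower, as did 21.0% of all genes tested in either direction, and the median log2 fold change was -0.071. With the block 0 were higher and 4 were lower (Ank3, Amigo1, Lgi1 and Lrrc55), where 12.9% of all genes tested were called higher and 10.7% lower. Amigo1, an auxiliary subunit of Kv2 channels, was at 617, 627 and 701 in cLTP cultures 1 to 3, against 742, 776 and 926 in DMSO cultures 1 to 3 (limma adjusted p = 0.0922, or 0.000581 with the block). The groups of Amigo1 did not overlap. Ank3, which encodes ankyrin G, the anchor of Kv7 channels at the axon initial segment, averaged 2975 ± 452 with cLTP and 3752 ± 748 with DMSO (adjusted p = 0.276, or 4.56e-05 with the block). Lgi1, a secreted protein linked to Kv1 channels, averaged 1102 ± 143 with cLTP and 1345 ± 159.8 with DMSO (adjusted p = 0.196, or 0.00141 with the block), and Lrrc55, a gamma subunit of BK channels, 126 ± 2.20 with cLTP and 166 ± 17.0 with DMSO (adjusted p = 0.0844, or 0.0165 with the block). Abcc8, which encodes the SUR1 partner of Kir6.2, averaged 249.7 ± 20.4 with cLTP and 284 ± 33.9 with DMSO, and Dpp6, a partner of Kv4 channels, 3301 ± 371 with cLTP and 3351 ± 269 with DMSO, with 95% intervals of the log2 fold change of -0.44 to 0.085 for Abcc8 and -0.26 to 0.21 for Dpp6.

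The mean of 10 that bounds the set had Kcnk13 (12.5), Kcng3 (13.4) and Kcng4 (14.5) just inside it. Just outside were Kcnj8 (5.68), Kcnn4 (5.59) and Kcnh6 (4.12). Of the 25 rows outside, 7 had 0 reads in every library, which allows a normalised read count of up to 2.63 to 3.38 per library by counting error alone, and 18 had 1 to 34 reads over the 6 libraries. The 7 were Kcne1, Kcne3, Kcnj1, Kcnk18, Kcnmb1, Kcnmb3 and Kcnu1. Kcnb2, Kcnd2 and Kcnj18 were not analysed here.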

How the data were processed

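Poly-A RNA was measured in 3 cLTP and 3 DMSO cultures with a stranded kit. The submitters' processing notes name bcl2fastq, STAR, DESeq2 and the build rn6, without versions; the tool and strand setting used for counting are not stated in any source here. The table deposited by the authors has 1 signal value for each gene and library, with no correction for gene length. All of the nonzero values (100% in every library, tolerance 0.01) came out as integer multiples of what 1 read is worth there (0.878 to 1.13), so whole reads could be recovered. Limma 3.58.1 (R 4.3.3, eBayes with trend and robust) was fitted on log2(value + 1) for the 17315 genes averaging 1 or more, with two-sided p-values, Benjamini-Hochberg adjustment and a threshold of 0.05; the pseudocount shrinks folds at low levels. EdgeR 4.0.16 and DESeq2 1.42.0 on recovered reads were alternatives and called 1623 and 1629 genes. Same-numbered cultures deviated together after removal of group means (correlations 0.22, 0.30 and 0.54, each over 0.1). On that ground alone they were taken as pairs in the fits with the block and in the differences by culture number. The labels state no pairing, and the main limma fit was unpaired. Correlations of cLTP 2 with DMSO 1 (0.19) and cLTP 1 with DMSO 2 (0.16) were also over 0.1, so that cultures 1 and 2 are hardly told apart. Chi-square per degree of freedom between replicates was 3.84 to 18.8, so no library repeats another. By rule, the channel genes given in every library were those past the threshold with or without the block and the lowest p of each role group. Kcna3, Kcnj10, Kcnj16, Kcnk13, Kcnn3 and the partner Amigo1 were given in every library outside this rule. These and all other genes were chosen after their values were seen. Single values of 5 members are not reported here. The members and lists were chosen with earlier results of these data known. Floors from reads cover counting error only.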

Additional observations from a re-analysis of the deposited data

How the results depend on the processing

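The 6 calls among the channel genes (4 higher, 2 lower) were the same 6 genes in edgeR, DESeq2, TMM scaling, quantile normalization, both other pseudocounts and both other filters. With the replicate block, 10 were lower in limma and 10 in edgeR, and channel partners lower numbered 4 in limma and 4 in edgeR, against 0 without it. All 6 calls were kept with the block. With equal totals 7 channel genes and 2 partners were lower. Without culture 1 of both groups 2 were higher and 0 lower (limma; 6 lower at an unadjusted p under 0.05), and without culture 2, 2 higher and 1 lower; these fits hold 2 libraries per group. Leaving out 1 library each gave 3 to 4 channel genes higher and 2 lower. Of all 17315 genes tested, 706 to 943 were higher and 227 to 471 lower in these fits. The median log2 fold change there was -0.14 to 0.0020 for channel genes and -0.19 to 0.033 for partners, none of which passed. Of the 70 channel genes 32 changed the sign of the log2 fold change when a library or a culture number was left out. The share of all genes that did so was not computed. None of the 32 channel genes were among the 14 called with or without the block, whose choice from the same libraries favours a kept sign. Among the genes given in every library, the log2 fold change of Kcnab3 changed sign without culture 1 (-0.027), that of Hcn4 without DMSO 3 (0.0099, with -0.38 as the other end over left-out libraries), and that of Kcne5 without DMSO 3 (-0.13, against 0.29 at the other end) or culture 3 (-0.0038). The log2 fold changes of Kcnj10 (-0.35 to 0.20) and Kcnj16 (-0.50 to 0.11) also changed sign over left-out libraries. The cause was not tested, apart from the fewer libraries of the fits that leave some out. Depth limits genes near the mean of 10, whose intervals were wide.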
